A study of Mus musculus with 12 samples.

Results

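Cultures exposed to amitriptyline at 5 µM were compared with control cultures, on 2 arrays each. These 4 arrays belong to a set of 12, which also holds 2 arrays each for imipramine (5 µM), citalopram (10 µM), duloxetine (0.1 µM) and mirtazapine (50 µM). The cells were primary neurons of embryonic brain from ICR (CD-1) mice, which are outbred, and grew in Neurobasal medium with the B27 supplement. Drug was added at day in vitro 3 and RNA was taken 48 h later, at day in vitro 5. No label says what the controls were given. Nor do the labels say whether the 2 arrays of a group came from separate cultures or animals, so each interval and p-value covers the spread between these samples alone, which may be technical. Levels are RMA values on a log2 scale, on which a difference of 1 is a doubling. Every gene with a probe set carrying exactly 1 gene symbol was eligible. Of 22180 such genes, 17467 passed a filter on dim probe sets and were tested. A difference is the amitriptyline mean minus the control mean (n = 2 arrays each), with an interval from the limma fit to all 12 arrays.

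Amitriptyline is a tricyclic antidepressant with a tertiary amine side chain. It blocks the serotonin transporter (Slc6a4) and the noradrenaline transporter (Slc6a2), and it also binds histamine, muscarinic, adrenergic and several serotonin receptors. Like other cationic amphiphilic drugs, it can accumulate in lysosomes. Cultures of this kind consist mainly of postmitotic neurons but can also hold dividing neural progenitors and young glia. The cell cycle, astrocyte and oligodendrocyte genes described here are used as markers of such cells. Which cells their signal came from was not tested. All 20 pan-neuronal markers listed passed the filter. Among them Ncam1, a neural adhesion molecule, was at 12.54 and 12.53 in the control arrays and 12.58 and 12.64 in the amitriptyline arrays. Markers of microglia (13 of 16 tested), endothelium (10 of 14) and astrocytes (19 of 21) also passed it, and of 7 red cell markers 1 did. Since 17467 of all 22180 genes passed the filter, these counts do not tell which cell types were present.

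Replicate arrays of the groups compared were close, with a correlation of 0.9953 between the amitriptyline arrays and 0.9938 between the control arrays over the tested genes. Duloxetine replicate 2 and mirtazapine replicate 2 stood apart from the other 10 arrays on the first principal component, which held 52.5% of the variance. Neither array is part of the amitriptyline or control mean, but both enter the spread against which the difference is tested. RMA was not redone without them, so any part they had in the normalization was not tested. The half-width of the 95% interval was 0.28 log2 units for the median gene.

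With amitriptyline, several stress and inflammatory genes lay above control and cell division and astrocyte genes below it, none past the test across all genes. The prostaglandin synthase gene Ptgs2 was 4.2-fold higher, heme oxygenase 1 (Hmox1) 2.42-fold higher and the cystine transporter gene Slc7a11 2.51-fold higher. The astrocyte water channel gene Aqp4 was 2.03-fold lower, the mitotic kinase gene Cdk1 1.9-fold lower and the Notch target Hes5 1.8-fold lower. With limma and Benjamini-Hochberg adjustment, 0 of 17467 genes had an adjusted p under 0.05 (0% called). The lowest adjusted p was 0.0542, shared by 9 genes, and 49 genes (17 higher, 32 lower) were under 0.1. At an unadjusted p under 0.05 there were 1073 genes (6.14%), of which 333 were higher (1.91%) and 740 lower (4.24%). The counts given for each gene list below are to be read against these shares.

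The count of calls depended on the spread within the duloxetine and mirtazapine groups. Without duloxetine replicate 2 and mirtazapine replicate 2, the same comparison called 228 genes, 56 higher (0.321% of those tested) and 172 lower (0.985%). Both settings give the same differences and change only the spread they are tested against. Being called without the arrays that stand apart is therefore not a second test of a gene. Leaving out either duloxetine array alone gave 48 calls and either mirtazapine array alone gave 0. The count is the same for either array of a pair because a group left with 1 array adds nothing to the spread. Over all tested genes the amitriptyline arrays lay above both controls in 14.1% and below both in 24.2%. Counts of list members whose arrays do not overlap are to be read against these shares. The median difference over all genes was -0.02, with 41.7% of genes above 0 and 56.7% below. Differences of at least 1 log2 unit were found for 14 genes above control and 6 below.

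**Figure D1:**
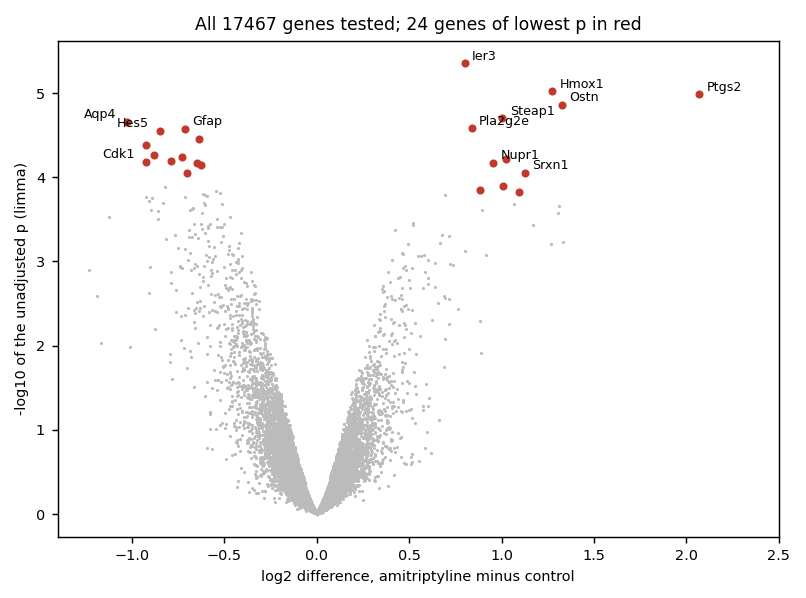
Each point is 1 of the 17467 genes tested, with the log2 difference, amitriptyline minus control, on the x axis, on the y axis -log10 of the unadjusted limma p, and the 24 red points are the 12 genes of lowest p in each direction. Ptgs2 stands farthest to the right at 2.07 and Aqp4 farthest left among the red points at -1.03.

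The prostaglandin pathway held the largest single difference. Ptgs2 encodes cyclooxygenase 2, the inducible enzyme that turns arachidonic acid into prostaglandins. Its level was 7.45 and 8.11 in the control arrays and 9.90 and 9.80 in the amitriptyline arrays, a difference of 2.07 (95% interval 1.51 to 2.63) with an adjusted p of 0.0542. Both amitriptyline arrays lay far above both controls, although the controls themselves were 0.66 apart. Pla2g2e, a secreted phospholipase that releases fatty acids from membranes, was at 7.60 and 7.84 in control and 8.62 and 8.50 with amitriptyline, a difference of 0.84 (95% interval 0.59 to 1.10) with an adjusted p of 0.0542. The cytosolic phospholipase gene Pla2g4a, which supplies arachidonic acid, was at 6.08 and 6.24 in control against 6.47 and 6.70 with amitriptyline, a difference of 0.43 (95% interval 0.13 to 0.72). The arrays did not overlap for any of the 3 genes, which were named for their low p. Over the whole list, 6 of 18 lay above both controls and 5 below both, against 14.1% and 24.2% of all genes. Of 18 genes tested, 3 were higher and 0 lower at an unadjusted p under 0.05, against 1.91% and 4.24% of all genes. The median difference was 0.02. The prostaglandin E receptor gene Ptger3 lay below both controls, at 8.17 and 8.06 in control and 7.92 and 7.83 with amitriptyline (-0.24, 95% interval -0.48 to 0.00).

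Among chemokine genes, too, a few members stood far from control. Cxcl1 and Cxcl2 encode neutrophil-attracting chemokines and lie next to each other on chromosome 5. Cxcl1 was at 6.66 and 7.15 in control and 7.95 and 7.88 with amitriptyline, a difference of 1.01 (95% interval 0.64 to 1.38). Cxcl2 was at 7.62 and 7.71 in control against 8.95 and 8.57 with amitriptyline, a difference of 1.10 (95% interval 0.68 to 1.51), and both genes had an adjusted p of 0.0906. Lcn2, the gene of the iron-chelating acute phase protein lipocalin 2, was at 6.92 and 6.81 in control against 7.62 and 7.55 with amitriptyline, a difference of 0.72 (95% interval 0.37 to 1.07). The adhesion molecule gene Vcam1 lay the other way, at 8.72 and 8.72 in control and 7.84 and 8.23 with amitriptyline (-0.69, 95% interval -0.96 to -0.41). Of the 25 genes in the list, 22 were tested, and the cytokine genes Il1a, Il1b and Il6 were not. Among the 22, 3 were higher and 1 lower at an unadjusted p under 0.05, against 1.91% and 4.24% of all genes. These were also the 4 called without the arrays that stand apart. The median was 0.05. Interferon response genes had a median of 0.03, with 0 of 17 higher and 2 lower. Their lower members Ifit1 and Ifit2, antiviral effectors, differed by -0.25 and -0.27.

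The 250 bases before the annotated start of Cxcl1, chr5:90890995-90891244 (plus strand), and of Cxcl2, chr5:90903649-90903898 (plus strand), are shown because each holds 2 matches to a motif of NF-kB, a transcription factor of inflammatory genes. They are from RefSeq (GRCm38.p6), 5′ to 3′ along the gene's strand, and capitals mark GGG, 2 bases of any kind, TT, 1 base of any kind and CC, on either strand, with 0 overlapping matches.
Cxcl1: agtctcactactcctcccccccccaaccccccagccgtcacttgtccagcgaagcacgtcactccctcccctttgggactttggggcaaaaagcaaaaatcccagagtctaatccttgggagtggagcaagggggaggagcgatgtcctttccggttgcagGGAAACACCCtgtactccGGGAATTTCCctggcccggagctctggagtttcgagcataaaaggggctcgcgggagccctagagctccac
Cxcl2: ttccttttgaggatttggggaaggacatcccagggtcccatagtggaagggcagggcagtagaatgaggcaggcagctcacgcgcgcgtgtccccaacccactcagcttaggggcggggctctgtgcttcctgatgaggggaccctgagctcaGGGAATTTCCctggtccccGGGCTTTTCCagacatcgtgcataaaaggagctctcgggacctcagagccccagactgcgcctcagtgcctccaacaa
The first bases of the matches lie 89 and 71 bases before the start in Cxcl1 and 97 and 78 before it in Cxcl2. In windows from 250 bases before to 50 after the first start listed for a gene, this motif occurred in 7 of 15 (46.7%) chemokine and cytokine genes with a sequence and in 4.71% of 27025 genes. The match is a description of the letters, and binding was not measured.

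Some genes of the response to oxidative stress lay well above control. The transcription factor NRF2 (Nfe2l2) switches on antioxidant enzymes when thiols are oxidised. Hmox1, which breaks down heme, was at 9.02 and 9.48 in control and 10.52 and 10.53 with amitriptyline, a difference of 1.28 (95% interval 0.93 to 1.62) with an adjusted p of 0.0542. Srxn1, sulfiredoxin, which repairs peroxiredoxins, was at 8.98 and 9.48 in control against 10.42 and 10.29 with amitriptyline, a difference of 1.13 (95% interval 0.73 to 1.52) with an adjusted p of 0.0737. Abcc4, an efflux transporter, was at 7.16 and 7.74 in control against 8.44 and 8.59 with amitriptyline, a difference of 1.07 (95% interval 0.65 to 1.48). These 3 genes lay above both controls on both arrays and were the 3 of the list called without the arrays that stand apart. Smaller differences were seen for Nfe2l2 itself (0.46, 95% interval 0.09 to 0.83), Osgin1 (0.32, 95% interval 0.06 to 0.58), the autophagy receptor gene Sqstm1 (0.23, 95% interval 0.04 to 0.41), the glutathione synthesis gene Gclc (0.30, 95% interval 0.01 to 0.58) and the quinone reductase gene Nqo1 (0.25, 95% interval 0.01 to 0.49). In all, 8 of 23 tested genes were higher at an unadjusted p under 0.05 and 0 lower, against 1.91% and 4.24% of all genes. The median was 0.10, and 9 genes had a difference below 0. Both amitriptyline arrays lay above both controls for 10 of the 23 and below both for 5, against 14.1% and 24.2% of all genes. The median was 0.05 without amitriptyline replicate 2. The antioxidant response element TGACNNNGC occurred in 6 of 17 (35.3%) genes with a sequence, against 12.5% of all genes. It was not particular to this list: the other lists ranged from 0 of 11 (0%) neuron markers to 9 of 25 (36%) immediate early genes. Of the 12 higher genes of lowest p, 1 of 10 (10%) with a sequence held it.

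Amino acid and integrated stress response genes lay higher more widely. In this response, phosphorylation of the initiation factor eIF2 raises translation of ATF4, which switches on amino acid transport and synthesis genes. All 31 tested genes of the list had a difference above 0, against 41.7% of all genes, with a median of 0.22. At an unadjusted p under 0.05, 11 were higher, against 1.91% of all genes. For 22, both amitriptyline arrays lay above both controls, against 14.1% of all genes. Nupr1, a stress-induced chromatin regulator, was at 7.55 and 8.04 in control and 8.78 and 8.72 with amitriptyline, a difference of 0.96 (95% interval 0.63 to 1.28) with an adjusted p of 0.0651. Atf3, a transcription factor induced downstream of ATF4, was at 8.33 and 8.64 in control against 9.46 and 9.28 with amitriptyline, a difference of 0.89 (95% interval 0.56 to 1.22) with an adjusted p of 0.0906. Slc7a11, the cystine and glutamate exchanger, was at 9.78 and 10.58 in control against 11.49 and 11.53 with amitriptyline, a difference of 1.33 (95% interval 0.73 to 1.93), and a second, dimmer probe set of it differed by 0.88. The controls were 0.80 apart for Slc7a11, and the amitriptyline arrays lay above the higher of them. Ppp1r15a (GADD34), which brings the phosphatase back to eIF2, differed by 0.46 (95% interval 0.21 to 0.71). The hormone gene Fgf21 differed by 0.70 (95% interval 0.22 to 1.17), the serine and glycine enzyme gene Shmt2 by 0.26 (95% interval 0.07 to 0.45), and the cationic amino acid transporter genes Slc7a1 and Slc7a3 by 0.33 and 0.29. The list's mean relative to control was -0.10 and 0.10 on the control arrays and 0.28 and 0.30 on the amitriptyline arrays. The median was 0.12 without control replicate 1 and 0.25 without control replicate 2.

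Upstream sequences of Nupr1, chr7:126625471-126625720 (minus strand), and Atf3, chr1:191183334-191183583 (minus strand), are shown because they are the genes of lowest p in the list that hold the C/EBP-ATF element. They are RefSeq sequences of GRCm38.p6 along the gene's strand, and capitals mark TGATGNAA on either strand, with 0 overlapping matches.
Nupr1: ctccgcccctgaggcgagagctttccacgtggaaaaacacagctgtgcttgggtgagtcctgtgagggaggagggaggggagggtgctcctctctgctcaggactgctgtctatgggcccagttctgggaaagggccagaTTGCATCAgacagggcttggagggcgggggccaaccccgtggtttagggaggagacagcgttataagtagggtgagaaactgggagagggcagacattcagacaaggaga
Atf3: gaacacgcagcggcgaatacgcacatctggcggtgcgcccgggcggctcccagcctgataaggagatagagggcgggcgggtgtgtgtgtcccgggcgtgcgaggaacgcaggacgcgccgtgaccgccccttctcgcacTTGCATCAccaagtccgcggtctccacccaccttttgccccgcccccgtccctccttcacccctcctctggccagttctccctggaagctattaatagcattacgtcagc
In both genes the match starts 110 bases before the annotated start. The element occurred in 8 of 26 (30.8%) stress response genes with a sequence and in 4.06% of all genes. Binding was not measured here either.

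Other higher genes of lowest p had varied roles. Ier3, an early response gene linked to cell survival, had the lowest p of all, at 8.43 and 8.46 in control and 9.28 and 9.21 with amitriptyline, a difference of 0.80 (95% interval 0.60 to 1.00) with an adjusted p of 0.0542. Ostn encodes osteocrin, a secreted peptide, and was at 5.62 and 6.18 in control against 7.21 and 7.24 with amitriptyline, a difference of 1.33 (95% interval 0.95 to 1.70) with an adjusted p of 0.0542. Steap1, of a family of membrane metalloreductases, was at 5.83 and 5.96 in control against 7.05 and 6.75 with amitriptyline, a difference of 1.01 (95% interval 0.71 to 1.30) with an adjusted p of 0.0542. The control signals of Ostn and Steap1 were low, near the filter at 5.72, and control replicate 1 of Ostn lay below it. Ddr2, a collagen-binding receptor kinase, was at 7.30 and 7.77 in control against 8.48 and 8.64 with amitriptyline, a difference of 1.03 (95% interval 0.68 to 1.37) with an adjusted p of 0.0651. For all 12 higher genes of lowest p, control replicate 1 lay below control replicate 2, by 0.03 to 0.66, while the amitriptyline arrays were 0.01 to 0.38 apart. The part of that order between the controls in these results was not tested. Each of the 24 genes of lowest p, 12 in each direction, had an adjusted p under 0.05 with limma without the arrays that stand apart. They were chosen for low p on the same amitriptyline and control arrays, so this is no separate support for them.

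**Figure D2:**
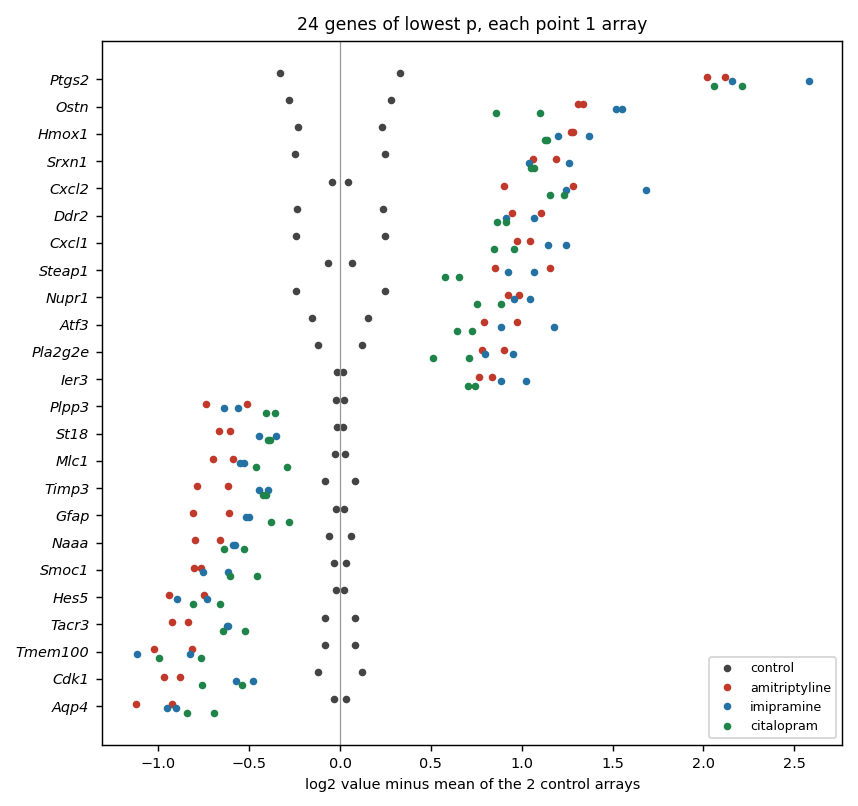
Each point is 1 array, drawn as its log2 value minus the mean of the 2 control arrays, for the 12 genes of lowest p in each direction and for control, amitriptyline, imipramine and citalopram. The amitriptyline points lie beyond both control points for all 24 genes, which were chosen for low p in this comparison. The controls are farthest apart for Ptgs2.

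Cell division genes were the most uniform of the lower groups. All 38 tested genes of mitosis were lower on both amitriptyline arrays than on both control arrays, against 24.2% of all genes. At an unadjusted p under 0.05, 37 of them were lower, against 4.24% of all genes. The median difference was -0.61, against -0.02 over all genes. Without the arrays that stand apart, 25 were called lower, against 0.985% of all genes. Cdk1, the kinase that drives entry into mitosis, was at 8.71 and 8.47 in control and 7.62 and 7.71 with amitriptyline, a difference of -0.93 (95% interval -1.24 to -0.61) with an adjusted p of 0.0651. Its cyclin partner Ccnb2 was at 8.81 and 8.73 in control against 8.19 and 8.26 with amitriptyline, a difference of -0.55 (95% interval -0.75 to -0.34) with an adjusted p of 0.0906. Cdc20, the activator of the anaphase-promoting complex, was at 8.26 and 8.22 in control against 7.76 and 7.67 with amitriptyline, a difference of -0.53 (95% interval -0.72 to -0.33). For each of these genes the higher amitriptyline array lay well below the lower control array.

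The same held for the machinery of chromosomes and spindle. Top2a, the topoisomerase that untangles sister chromatids, was at 8.45 and 8.26 in control and 7.35 and 7.55 with amitriptyline (-0.91, 95% interval -1.26 to -0.56). The chromokinesin gene Kif4 was at 6.44 and 6.19 in control against 5.33 and 5.52 with amitriptyline (-0.89, 95% interval -1.23 to -0.55), and the spindle gene Nusap1 at 7.58 and 7.67 in control against 6.77 and 6.82 with amitriptyline (-0.83, 95% interval -1.15 to -0.51). The amitriptyline signals of Kif4 were low, below the filter level of 5.72. Mki67, whose protein Ki-67 marks cycling cells, was at 8.77 and 8.71 in control against 7.96 and 8.25 with amitriptyline, a difference of -0.64 (95% interval -0.96 to -0.31) with an adjusted p of 0.164. Kinetochore genes Ndc80 and Nuf2 differed by -0.74 and -0.91, the checkpoint genes Bub1 and Bub1b by -0.74 and -0.47, and the aurora kinase genes Aurkb and Aurka by -0.57 and -0.35. Nek2, a centrosome kinase, was the member without an unadjusted p under 0.05, at -0.13 (95% interval -0.43 to 0.18). In bulk RNA of whole cultures, fewer dividing cells and less of these transcripts per cell cannot be told apart, and this applies to every cell type list below.

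Sequences upstream of Cdk1, chr10:69352913-69353162 (minus strand), Ccnb2, chr9:70421555-70421804 (minus strand), and Cdc20, chr4:118437344-118437593 (minus strand), are shown as the mitotic genes of lowest p. Each holds matches to the letters of 2 elements known from the control of cell cycle genes. Capitals mark the CCAAT box, searched as CCAAT, and the CHR element, searched as TTTGAA, each on both strands, with 0 overlapping matches. The sequences are RefSeq's for GRCm38.p6, along the gene's strand.
Cdk1: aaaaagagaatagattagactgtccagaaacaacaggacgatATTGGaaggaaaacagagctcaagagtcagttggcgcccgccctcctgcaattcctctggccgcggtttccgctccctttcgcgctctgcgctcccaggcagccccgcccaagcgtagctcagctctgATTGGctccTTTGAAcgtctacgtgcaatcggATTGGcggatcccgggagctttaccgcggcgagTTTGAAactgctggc
Ccnb2: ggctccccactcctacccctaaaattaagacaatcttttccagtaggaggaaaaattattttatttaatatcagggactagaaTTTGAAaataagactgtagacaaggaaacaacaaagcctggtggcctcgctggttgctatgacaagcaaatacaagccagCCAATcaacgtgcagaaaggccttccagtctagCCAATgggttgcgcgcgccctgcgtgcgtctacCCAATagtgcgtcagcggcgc
Cdc20: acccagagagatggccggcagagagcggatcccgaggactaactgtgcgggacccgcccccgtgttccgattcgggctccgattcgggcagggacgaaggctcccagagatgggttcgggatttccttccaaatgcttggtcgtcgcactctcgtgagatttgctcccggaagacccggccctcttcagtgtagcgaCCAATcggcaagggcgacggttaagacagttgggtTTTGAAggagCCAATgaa
Cdk1 holds CCAAT boxes 208, 80 and 48 bases before the annotated start and CHR elements at 71 and 15. Ccnb2 holds CCAAT boxes at 87, 54 and 21 and a CHR element at 167, and Cdc20 holds CCAAT boxes at 53 and 8 and a CHR element at 18. The CHR element occurred in 24 of 32 (75%) mitotic genes with a sequence, in 3 of 27 (11.1%) replication genes and in 18.1% of all genes. The CCAAT box occurred in 24 of 32 (75%) mitotic genes, in 19 of 27 (70.4%) replication genes and in 37.9% of all genes. It was not particular to cell division genes. Across the lists it ranged from 1 of 15 (6.67%) chemokine and cytokine genes to 15 of 16 (93.8%) endoplasmic reticulum chaperone genes. All of these are matches of letters, and binding was not measured.

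DNA replication genes were lower by less. Their median difference was -0.29, with 28 of 31 below 0. At an unadjusted p under 0.05, 17 were lower and 0 higher, against 4.24% and 1.91% of all genes. Both amitriptyline arrays lay below both controls for 24, against 24.2% of all genes. Pclaf, which binds the sliding clamp PCNA, was at 7.02 and 7.06 in control and 6.31 and 6.56 with amitriptyline, a difference of -0.61 (95% interval -0.84 to -0.37). Mcm5, a subunit of the replicative helicase, was at 8.80 and 8.72 in control against 8.10 and 8.25 with amitriptyline, a difference of -0.59 (95% interval -0.83 to -0.34). Uhrf1, which recruits the maintenance DNA methyltransferase to new DNA, was at 8.0 and 7.94 in control against 7.53 and 7.54 with amitriptyline, a difference of -0.44 (95% interval -0.65 to -0.22). The range within the list was wide. The ribonucleotide reductase genes Rrm1 and Rrm2 differed by -0.49 and -0.53 (a second, dimmer probe set of Rrm2 by 0.02), the origin licensing factor gene Cdt1 by 0.07 (95% interval -0.21 to 0.34), the thymidylate synthase gene Tyms by 0.06 (95% interval -0.19 to 0.30) and the sliding clamp gene Pcna by -0.10 (95% interval -0.33 to 0.13). Pole, the leading strand polymerase gene, differed by -0.52 (95% interval -0.80 to -0.23), but a second and dimmer probe set of it differed by 0.22.

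**Figure D3:**
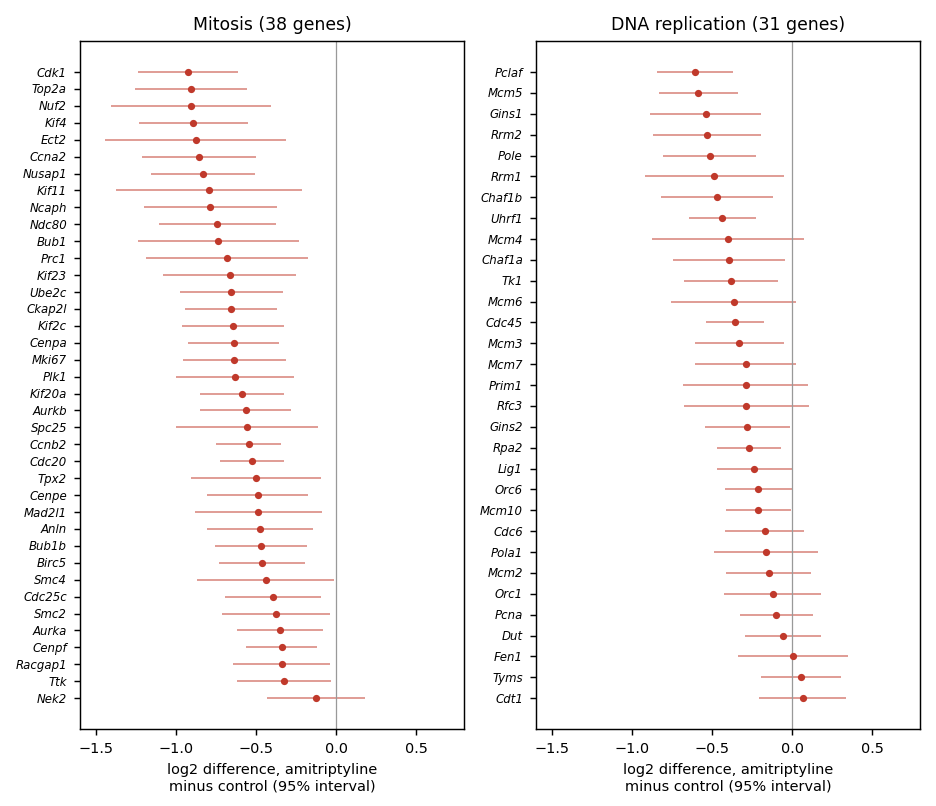
Points give the log2 difference, amitriptyline minus control, and bars its 95% interval, for the 38 mitosis genes on the left and the 31 DNA replication genes on the right. The mitosis genes lie between -0.93 and -0.13, and only the interval of Nek2 reaches 0, while 14 of the replication genes have intervals that do.

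Regulators of G1, the phase before replication, were lower in fewer cases. Of 21 tested, 2 were lower at an unadjusted p under 0.05 and 0 higher, with a median of -0.13 that was -0.05 without amitriptyline replicate 1. The 2 were E2f8, a repressor of the E2F family (7.45 and 7.57 in control, 6.69 and 7.0 with amitriptyline), and Cdkn2c, an inhibitor of the cyclin D kinases (8.0 and 8.18 in control against 7.27 and 7.52 with amitriptyline). Their differences were -0.67 (95% interval -0.95 to -0.39) and -0.70 (95% interval -1.10 to -0.29). The cyclin gene Ccnd1 differed by 0.20 (95% interval -0.05 to 0.44) and Cdkn1a, the gene of the inhibitor p21, by 0.15 (95% interval -0.03 to 0.32), and both intervals include 0.

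Astrocyte markers were lower as a group. All 19 tested had a difference below 0, against 56.7% of all genes, with a median of -0.30. At an unadjusted p under 0.05, 12 were lower, against 4.24% of all genes. Aqp4, the water channel of astrocyte endfeet, was at 8.71 and 8.64 in control and 7.55 and 7.75 with amitriptyline, a difference of -1.03 (95% interval -1.33 to -0.72) with an adjusted p of 0.0542. Gfap, the intermediate filament of astrocytes, was at 8.89 and 8.85 in control against 8.06 and 8.26 with amitriptyline, a difference of -0.71 (95% interval -0.93 to -0.49) with an adjusted p of 0.0542. Mlc1, a membrane protein of astrocytes, was at 9.76 and 9.82 in control against 9.09 and 9.20 with amitriptyline, a difference of -0.65 (95% interval -0.86 to -0.43) with an adjusted p of 0.0651. For these genes the controls were within 0.07 of each other and both amitriptyline arrays lay lower. Ndrg2 differed by -0.56 (95% interval -0.83 to -0.29), clusterin (Clu) by -0.47 (95% interval -0.70 to -0.24), and the glutamate transporter gene Slc1a2 by -0.37 (95% interval -0.58 to -0.16). Among the lowest p-values outside the list, Plpp3, a lipid phosphate phosphatase, was at 10.65 and 10.69 in control against 9.93 and 10.16 with amitriptyline (-0.63, 95% interval -0.84 to -0.41). The matrix gene Smoc1 was at 9.31 and 9.24 in control against 8.47 and 8.51 with amitriptyline (-0.79, 95% interval -1.05 to -0.52), and Naaa, the lysosomal amidase of fatty acid ethanolamides, at 9.42 and 9.30 in control against 8.56 and 8.70 with amitriptyline (-0.73, 95% interval -0.97 to -0.49).

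Progenitor markers were lower too. Radial glia, the stem cells of the embryonic cortex, had 16 of 19 markers below 0, 8 lower and 1 higher at an unadjusted p under 0.05, and a median of -0.20. Hes5, a Notch target that keeps progenitors undifferentiated, was at 9.72 and 9.76 in control and 8.80 and 8.99 with amitriptyline, a difference of -0.85 (95% interval -1.10 to -0.59) with an adjusted p of 0.0542, while a second, dimmer probe set of it differed by -0.11. Pax6, a transcription factor of cortical progenitors, was at 8.37 and 8.23 in control against 7.80 and 7.96 with amitriptyline (-0.42, 95% interval -0.63 to -0.21). The endothelin receptor gene Ednrb was at 10.64 and 10.97 in control against 10.10 and 10.34 with amitriptyline (-0.59, 95% interval -0.90 to -0.27). The higher member was the matrix gene Tnc (0.32, 95% interval 0.07 to 0.56). Intermediate progenitors, the daughter cells that divide once more to give neurons, had all 12 markers below 0, 6 at an unadjusted p under 0.05 and a median of -0.36. Their defining transcription factor Eomes was at 6.99 and 6.55 in control against 6.42 and 6.26 with amitriptyline (-0.43, 95% interval -0.73 to -0.13), and the Notch ligand gene Dll3 at 7.36 and 7.61 in control against 6.85 and 7.09 with amitriptyline (-0.52, 95% interval -0.82 to -0.21). Called without the arrays that stand apart were 2 radial glia and 0 intermediate progenitor markers.

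Some genes of progenitor signalling were lower too. Notch signalling keeps progenitors dividing, and its 22 tested genes had a median of -0.12. Of the 22, 6 were lower and 0 higher at an unadjusted p under 0.05, against 4.24% and 1.91% of all genes. Both amitriptyline arrays lay below both controls for 12 and above both for 3, against 24.2% and 14.1% of all genes. Lfng, which modifies the receptor, differed by -0.55 (95% interval -0.81 to -0.29), the effector gene Hey2 by -0.36 (95% interval -0.56 to -0.16) and the receptor gene Notch2 by -0.40 (95% interval -0.66 to -0.13). The median was -0.03 without amitriptyline replicate 1 and -0.21 without amitriptyline replicate 2, beside -0.02 over all genes with every array kept. Of 21 genes of BMP signalling, which promotes astrocyte fate, 7 were lower and 0 higher, against the same shares of all genes. Their median was -0.12, and 10 lay below both controls and 1 above both. Tmem100, a membrane protein induced by BMP, was at 6.72 and 6.89 in control and 5.99 and 5.78 with amitriptyline, a difference of -0.92 (95% interval -1.21 to -0.63) with an adjusted p of 0.0651. Its amitriptyline signals were low, near the filter at 5.72. The Id genes Id4 and Id3 differed by -0.36 and -0.37, and the BMP antagonist gene Grem1 by -0.38 (95% interval -0.58 to -0.17).

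Oligodendrocyte lineage markers had a median of -0.32, with 13 of 14 below 0 and 5 lower at an unadjusted p under 0.05. Olig1, a transcription factor of the lineage, was at 10.52 and 10.89 in control and 9.82 and 9.95 with amitriptyline, a difference of -0.82 (95% interval -1.12 to -0.52) with an adjusted p of 0.0906. Pdgfra, the growth factor receptor of oligodendrocyte precursors, was at 8.88 and 9.90 in control against 7.82 and 8.63 with amitriptyline, a difference of -1.17 (95% interval -1.97 to -0.36). Its 2 control arrays were 1.02 apart and its amitriptyline arrays 0.81 apart, although the groups did not overlap. The size of the difference depended on the control array: the list's mean relative to control was -0.19 and 0.19 on the controls against -0.41 and -0.35 with amitriptyline, and the median was -0.51 without control replicate 1 and -0.19 without control replicate 2.

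Pan-neuronal genes differed little. The 20 pan-neuronal markers had a median of -0.02, and 0 were higher and 0 lower at an unadjusted p under 0.05. The largest difference was that of the neurofilament gene Nefl, at 10.15 and 10.34 in control and 9.84 and 10.03 with amitriptyline (-0.31, 95% interval -0.64 to 0.02), and the synaptic vesicle sensor gene Syt1 differed by 0.07 (95% interval -0.14 to 0.28). Markers of cortical excitatory neurons had a median of -0.17, with 13 of 15 below 0. Of these 15, 10 lay below both controls and 1 above both, against 24.2% and 14.1% of all genes. At an unadjusted p under 0.05, 3 were lower. These were the vesicular glutamate transporter gene Slc17a7 (-0.45, 95% interval -0.75 to -0.14) and the deep layer transcription factor genes Tle4 (-0.44, 95% interval -0.78 to -0.10) and Bcl11b (-0.20, 95% interval -0.39 to -0.01). Markers of GABAergic neurons had a median of 0.21, with 3 of 15 higher and 1 lower. Of these 15, 7 lay above both controls and 2 below both. The interneuron transcription factor genes Maf and Lhx6 differed by 0.38 (95% interval 0.06 to 0.69) and 0.26 (95% interval 0.06 to 0.47), with a second, dimmer probe set of Maf at 0.16, and the peptide gene Sst by 0.26 (95% interval 0.01 to 0.50), while calretinin (Calb2) was at 8.16 and 7.94 in control and 7.46 and 7.56 with amitriptyline (-0.54, 95% interval -0.86 to -0.22). The GABAergic median was 0.08 without control replicate 1 and 0.25 without control replicate 2.

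**Figure D4:**
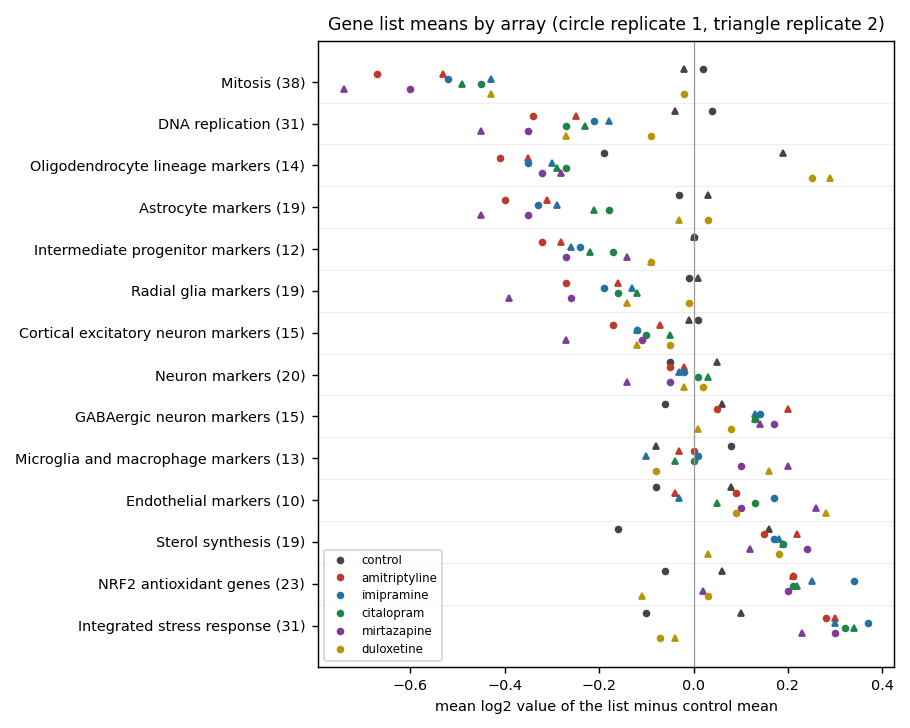
Each point is the mean log2 value of a gene list on 1 array minus the mean of the 2 control arrays, with the number of genes tested in brackets and circles for replicate 1 and triangles for replicate 2 of each of the 6 groups. The mitosis list lies at -0.67 and -0.53 on the amitriptyline arrays, and the neuron markers at -0.05 and -0.02.

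Neuropeptide genes were mostly near control with a few clearly lower members. Of 27 peptide and peptide receptor genes, 7 were lower and 1 higher at an unadjusted p under 0.05, around a median of -0.05. Tacr3, the receptor of neurokinin B, was at 8.31 and 8.14 in control and 7.39 and 7.30 with amitriptyline, a difference of -0.88 (95% interval -1.17 to -0.59) with an adjusted p of 0.0651. Cholecystokinin (Cck) was at 10.97 and 10.88 in control against 10.39 and 10.23 with amitriptyline, a difference of -0.62 (95% interval -0.85 to -0.38) with an adjusted p of 0.0906. Neurotensin (Nts) was at 9.54 and 9.12 in control against 8.20 and 8.21 with amitriptyline, a difference of -1.13 (95% interval -1.59 to -0.66). With Grp (-0.48, 95% interval -0.69 to -0.26) and the neuronal pentraxin gene Nptx1 (-0.47, 95% interval -0.71 to -0.23), these were the 5 of the list called without the arrays that stand apart. Enkephalin (Penk) differed by -0.38 (95% interval -0.64 to -0.12) and galanin (Gal) by -0.46 (95% interval -0.88 to -0.03).

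The drug's own targets gave a mixed picture. Slc6a4, the serotonin transporter that amitriptyline blocks, was at 6.85 and 6.37 in control and 6.13 and 5.79 with amitriptyline, a difference of -0.65 (95% interval -1.03 to -0.27) with an adjusted p of 0.252. These are low signals, near the filter at 5.72, and the groups did not overlap. Slc6a2, the noradrenaline transporter, differed by -0.01 (95% interval -0.43 to 0.41), the histamine H1 receptor gene Hrh1 by -0.03 (95% interval -0.33 to 0.28) and the muscarinic M1 receptor gene Chrm1 by -0.20 (95% interval -0.44 to 0.05), with a second, dimmer probe set at -0.31. Among serotonin receptors, Htr2c was at 6.57 and 6.47 in control against 6.04 and 6.08 with amitriptyline (-0.46, 95% interval -0.76 to -0.16), and it was called without the arrays that stand apart. Htr2a was at 8.71 and 9.18 in control against 9.18 and 9.26 with amitriptyline (0.28, 95% interval -0.09 to 0.64), with a control array level with an amitriptyline array. Of 30 monoamine genes tested, 4 were lower and 0 higher at an unadjusted p under 0.05, with a median of -0.08. The monoamine oxidase gene Maob differed by -0.38 (95% interval -0.71 to -0.04).

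Trophic factor genes lay on both sides of control. Bdnf, the neurotrophin often studied with antidepressants, was at 6.72 and 6.73 in control and 6.69 and 6.80 with amitriptyline, a difference of 0.02 (95% interval -0.24 to 0.28). The gene of its receptor, Ntrk2, differed by 0.03 (95% interval -0.18 to 0.23). Vegfa, the vascular growth factor, was at 10.29 and 10.37 in control against 10.79 and 10.72 with amitriptyline, a difference of 0.43 (95% interval 0.24 to 0.61) with an adjusted p of 0.108. The receptor gene Gfra1 of the GDNF family was at 7.85 and 7.86 in control against 7.27 and 7.44 with amitriptyline (-0.50, 95% interval -0.71 to -0.29), with a second, dimmer probe set at -0.28, and the growth factor gene Hgf at 7.75 and 7.40 in control against 6.74 and 6.94 with amitriptyline (-0.74, 95% interval -1.18 to -0.29). The fibroblast growth factor receptor genes Fgfr1, Fgfr2 and Fgfr3 differed by -0.29, -0.42 and -0.39. Of 26 trophic genes, 1 was higher and 5 lower at an unadjusted p under 0.05, and the median was 0.02.

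Immediate early genes, which respond to synaptic activity and to stress, had 3 higher and 3 lower of 33. The higher ones were Ier3, Atf3 and the transcription factor gene Klf4 (0.52, 95% interval 0.21 to 0.82), and the lower ones Btg2 (-0.48, 95% interval -0.79 to -0.17), Fosl2 (-0.27, 95% interval -0.49 to -0.05) and Nr4a3 (-0.25, 95% interval -0.48 to -0.02). The activity genes Fos and Npas4 could not be placed, since their control arrays were at 8.45 and 7.50 and at 8.35 and 7.29, with the amitriptyline arrays inside both ranges at 7.71 and 7.59 and 7.70 and 7.76. Arc differed by -0.03 (95% interval -0.24 to 0.18) and Vgf by -0.17 (95% interval -0.49 to 0.15). Synaptic vesicle genes had a median of 0.01 with 1 of 24 higher, the adhesion gene Nrxn3 (0.36, 95% interval 0.17 to 0.55). Glutamate receptor genes had a median of 0.01 with 2 of 19 lower and 0 higher. Of the 19, 8 lay above both controls and 3 below both, against 14.1% and 24.2% of all genes. The NMDA receptor subunit gene Grin3a was at 9.35 and 8.85 in control and 8.40 and 8.32 with amitriptyline (-0.74, 95% interval -1.11 to -0.38). Axon guidance genes had 7 lower and 2 higher of 38, among them the semaphorin co-receptor genes Nrp1 (-0.54, 95% interval -0.93 to -0.14) and Nrp2 (-0.51, 95% interval -0.90 to -0.11).

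Sterol synthesis genes were slightly higher, but within the reach of the controls. Of 19 tested, 17 had a difference above 0 and 6 an unadjusted p under 0.05, with a median of 0.22. Lss, which closes the sterol ring system, was at 9.39 and 9.62 in control and 9.94 and 9.88 with amitriptyline (0.41, 95% interval 0.16 to 0.66). Insig1, the sensor that holds back sterol synthesis, was at 11.06 and 11.41 in control against 11.54 and 11.55 with amitriptyline (0.31, 95% interval 0.04 to 0.58), and the mevalonate pathway gene Mvd at 9.64 and 10.23 in control against 10.24 and 10.40 with amitriptyline (0.39, 95% interval 0.01 to 0.76). The list's mean was -0.16 and 0.16 on the control arrays and 0.15 and 0.22 on the amitriptyline arrays, so 1 amitriptyline array was level with or below control replicate 2. The median was 0.05 without control replicate 1 and 0.38 without control replicate 2. Of the other lipid genes, lipoprotein lipase (Lpl) was at 10.22 and 9.96 in control against 9.43 and 9.40 with amitriptyline (-0.68, 95% interval -0.94 to -0.41), with a second, dimmer probe set at -0.65, and apolipoprotein E (Apoe) differed by -0.25 (95% interval -0.44 to -0.06).

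Lysosomal genes had a median of 0.02, with 1 of 26 higher at an unadjusted p under 0.05. This was Gpnmb, a glycoprotein of lysosomal stress, at 7.01 and 7.02 in control and 7.59 and 7.78 with amitriptyline (0.67, 95% interval 0.37 to 0.97), and it was called without the arrays that stand apart. Smpd1, the gene of acid sphingomyelinase, an enzyme that amitriptyline inhibits, was at 10.45 and 10.70 in control against 10.46 and 10.63 with amitriptyline (-0.03, 95% interval -0.29 to 0.23), with a second, dimmer probe set at -0.11. Of 19 autophagy genes, 1 (Sqstm1) was higher and 1 (Wipi1, -0.35, 95% interval -0.56 to -0.14) lower. Endoplasmic reticulum chaperones had a median of 0.09 with 1 of 18 higher, the chaperone Creld2 (0.29, 95% interval 0.05 to 0.53). Of the 18, 9 lay above both controls and 0 below both, against 14.1% and 24.2% of all genes. Heat shock genes had a median of 0.04 and 0 of 13 higher or lower.

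Glucose metabolism genes lay on both sides of control. Of 23 genes of glycolysis and the hypoxia response, 4 were higher and 4 lower at an unadjusted p under 0.05. Slc2a1, the glucose transporter GLUT1, was at 9.0 and 9.25 in control and 9.81 and 9.83 with amitriptyline (0.70, 95% interval 0.43 to 0.96), and a second, dimmer probe set of it differed by 0.03. The glycolytic activator gene Pfkfb3 differed by 0.36 (95% interval 0.16 to 0.55), while the oxygen sensor gene Egln3 was at 8.91 and 8.59 in control against 7.98 and 8.21 with amitriptyline (-0.66, 95% interval -1.05 to -0.26) and the neuronal glucose transporter gene Slc2a3 differed by -0.35 (95% interval -0.67 to -0.03). Pdk4, a glucocorticoid-responsive kinase gene that limits pyruvate oxidation, was at 7.55 and 7.10 in control against 6.49 and 6.53 with amitriptyline (-0.82, 95% interval -1.18 to -0.45). Oxidative phosphorylation genes had a median of -0.06, with 2 of 52 lower and 0 higher, against 4.24% and 1.91% of all genes.

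Chromatin genes showed little. Histone deacetylase and DNA methylation genes had a median of -0.05 with 1 of 25 lower, which was Uhrf1, against 4.24% of all genes. Histone acetylation and methylation enzymes had a median of 0.01 with 1 of 28 higher, the methyltransferase gene Kmt2d (0.28, 95% interval 0.05 to 0.51). Genes of the Bcl2 family, which set the threshold for apoptosis, had a median of -0.07 and 0 of 16 higher or lower at an unadjusted p under 0.05. Among p53 targets, 1 was higher and 1 lower of 15, with a median of 0.02.

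Matrix and mesenchymal genes lay on both sides of control. Timp3, an inhibitor of matrix proteases, was at 8.94 and 8.77 in control and 8.07 and 8.24 with amitriptyline, a difference of -0.70 (95% interval -0.95 to -0.45) with an adjusted p of 0.0737. The brevican gene Bcan, a proteoglycan of brain matrix, was at 9.85 and 9.94 in control against 9.19 and 9.40 with amitriptyline (-0.60, 95% interval -0.88 to -0.32). Decorin (Dcn) was at 9.16 and 8.71 in control against 7.98 and 8.09 with amitriptyline (-0.90, 95% interval -1.35 to -0.45), and Pdgfrb, the growth factor receptor of pericytes, at 7.93 and 7.72 in control against 7.16 and 7.27 with amitriptyline (-0.61, 95% interval -0.91 to -0.31). Fibronectin (Fn1), by contrast, was at 10.09 and 10.17 in control against 10.49 and 10.56 with amitriptyline (0.40, 95% interval 0.19 to 0.60). The fibroblast and mural list as a whole had a median of -0.02, and its mean was -0.04 and 0.04 on the control arrays and -0.09 and -0.06 on the amitriptyline arrays. Microglial markers had a median of -0.02 and endothelial markers one of 0.03. The microglial mean was 0.08 and -0.08 on the control arrays and 0.00 and -0.03 on the amitriptyline arrays. The endothelial mean was -0.08 and 0.08 on the control arrays and 0.09 and -0.04 on the amitriptyline arrays. In both lists the amitriptyline arrays reached into the range of the controls, and the microglial marker Cd68, a lysosomal protein, was the only member of either list with an unadjusted p under 0.05 (0.45, 95% interval 0.16 to 0.73). The transcription factor gene St18 completes the 12 lower genes of lowest p, at 7.17 and 7.14 in control and 6.55 and 6.49 with amitriptyline (-0.64, 95% interval -0.84 to -0.44).

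Of the 20 genes that differed by at least 1 log2 unit, 7 lay outside the lists and the lowest p-values and were chosen after their values were seen. Higher were the glutamine transporter gene Slc1a5 (1.31, 95% interval 0.79 to 1.83), the cysteine synthesis gene Cth (1.27, 95% interval 0.69 to 1.84), corneodesmosin (Cdsn), an adhesion protein of skin (1.31, 95% interval 0.78 to 1.83), and the carbonic anhydrase gene Car6 (1.17, 95% interval 0.68 to 1.66). Lower were the linker histone gene H1f5 (-1.23, 95% interval -1.85 to -0.61), Scrg1 (-1.19, 95% interval -1.85 to -0.52) and the thioredoxin-interacting protein gene Txnip (-1.01, 95% interval -1.73 to -0.30). Txnip was at 10.36 and 9.23 in control and 8.76 and 8.81 with amitriptyline, so its controls were farther apart than the group means.

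Imipramine, given at the same 5 µM for the same time, is the other tricyclic of the set. It carries a nitrogen atom in the central ring where amitriptyline has a carbon joined to the side chain by a double bond. In the direct comparison 0 of 17467 genes had an adjusted p under 0.05 with limma (0% called; lowest adjusted p 1), and 211 (1.21%) had an unadjusted p under 0.05. This does not show that the drugs act alike: the half-width of the 95% interval was 0.28 for the median gene, and the largest difference of either sign was 0.81. Both comparisons with control use the same control arrays, so the values are given side by side only. Ptgs2 differed from control by 2.07 with amitriptyline and 2.37 with imipramine, and from each other by -0.30 (-0.86 to 0.26). Hmox1 differed from control by 1.28 and 1.29, with -0.01 (-0.35 to 0.33) between the drugs. Aqp4 differed from control by -1.03 and -0.93, with -0.10 (-0.40 to 0.21) between the drugs. The interval of the difference between the drugs included 0 for 21 of the 24 genes of lowest p, and the estimates ranged from -0.40 to 0.05.

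The 3 genes whose interval excluded 0 were all lower with amitriptyline. Cdk1 was at 7.62 and 7.71 with amitriptyline and 8.02 and 8.11 with imipramine, a difference of -0.40 (-0.71 to -0.09). St18 was at 6.55 and 6.49 with amitriptyline against 6.71 and 6.80 with imipramine, a difference of -0.24 (-0.44 to -0.04). Timp3 was at 8.07 and 8.24 with amitriptyline against 8.41 and 8.46 with imipramine, a difference of -0.28 (-0.53 to -0.03). Their adjusted p for this comparison was 1, and the 24 genes had been chosen for their difference between amitriptyline and control. The mean of the mitosis list relative to control was -0.67 and -0.53 with amitriptyline and -0.52 and -0.43 with imipramine, with both amitriptyline arrays just below both imipramine arrays, and 3 of its 38 genes had an unadjusted p under 0.05 between the drugs, against 1.21% of all genes. Beside Cdk1 these were Kif4, at -0.49 (-0.83 to -0.14), and the spindle gene Ckap2l, at -0.36 (-0.65 to -0.08).

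**Figure D5:**
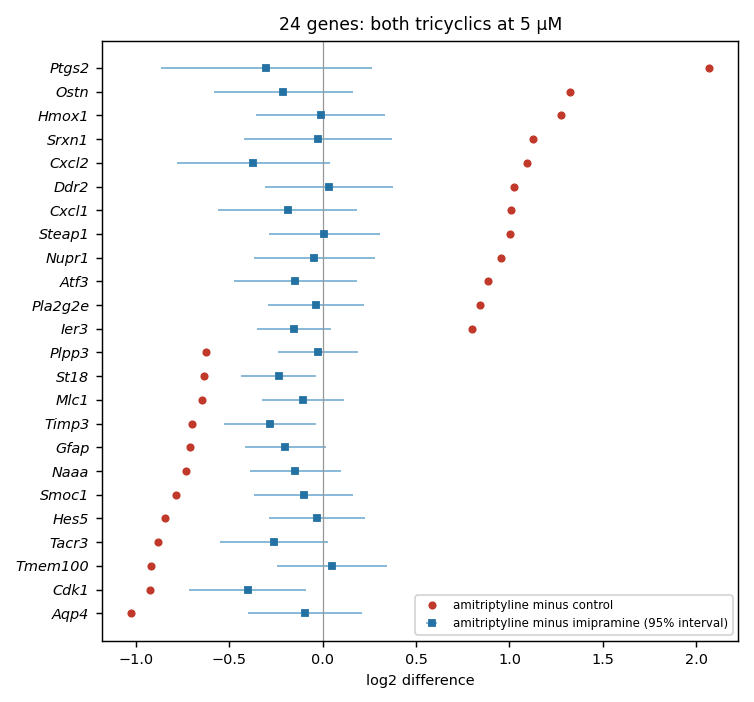
Squares give the log2 difference between amitriptyline and imipramine with its 95% interval, and red circles the difference between amitriptyline and control, for the 12 genes of lowest p in each direction. The squares lie between -0.40 and 0.05, nearer to 0 than the circles, and 3 intervals leave out 0.

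The lowest p-values between the 2 tricyclics belonged to other genes. Nqo1, the NRF2 target, was at 6.27 and 6.30 with amitriptyline, 6.85 and 6.67 with imipramine and 5.90 and 6.17 in control, a difference between the drugs of -0.48 (-0.72 to -0.23). Cd109, a membrane-anchored protease inhibitor, was at 5.81 and 5.86 with amitriptyline and 6.44 and 6.35 with imipramine, a difference of -0.56 (-0.84 to -0.28). Its amitriptyline signals were near the filter at 5.72. Mettl7a1 and the transporter gene Slc16a9 differed by -0.41 (-0.67 to -0.15) and -0.41 (-0.67 to -0.14). Higher with amitriptyline were Srsx at 0.79 (0.41 to 1.17), Eif4a3l1 at 0.64 (0.33 to 0.94), Speer4c at 0.40 (0.16 to 0.64) and the tyrosine kinase gene Fes at 0.37 (0.14 to 0.60). All had an adjusted p of 1.

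Citalopram, a selective serotonin reuptake inhibitor with another ring system, was given at 10 µM, so its dose differs from that of amitriptyline and the values are set side by side. Its difference from control was 2.14 for Ptgs2, 1.14 for Hmox1, -0.77 for Aqp4, -0.33 for Gfap and -0.65 for Cdk1, beside 2.07, 1.28, -1.03, -0.71 and -0.93 for amitriptyline. The median difference from control over the mitosis list was -0.45 with citalopram and -0.61 with amitriptyline, and over the stress response list 0.29 and 0.22. Between the drugs 0 genes had an adjusted p under 0.05 with limma (0% called), and 229 (1.31%) had an unadjusted p under 0.05; drug and dose cannot be told apart here. Leading the higher side of amitriptyline were Srsx, Atp6v1fnb, Mrgpra2b and Dpm3, at 0.66 (0.28 to 1.04), 0.45 (0.16 to 0.73), 0.41 (0.14 to 0.68) and 0.38 (0.13 to 0.63). On the lower side they were Kif14, Cox8b, Gfap and Cyp26b1, at -0.53 (-0.79 to -0.26), -0.40 (-0.61 to -0.19), -0.38 (-0.60 to -0.16) and -0.34 (-0.54 to -0.13). The adjusted p was 1 for all 8. Signals of Mrgpra2b, Kif14 and Cox8b were low, near the filter at 5.72.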

How the data were processed

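Amitriptyline (2 arrays) was compared with control (2 arrays) within a set of 12 arrays, grouped and numbered by their titles, with dose and time as labelled. The authors deposited log2 values of 41345 probe sets, made with Affymetrix Expression Console and RMA, per the submitters' processing notes. RMA subtracts background, quantile-normalizes and summarises probes, so a shift common to all genes is removed. Its version and the build were not given in the sources used here. Array values carry no counts, and the number of arrays limits the precision.

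Probe sets with exactly 1 symbol in the platform annotation (23521) were used, and 99.2% of these matched the GRCm38.p6 gene table. For each gene the probe set with the highest mean stood in, provided this mean reached the 30th percentile of probe sets (5.72). The 12 arrays were fitted together with limma 3.58.1 under R 4.3.3 (lmFit, eBayes), with 6 residual and 3.86 prior degrees of freedom. Benjamini-Hochberg adjustment covered all 17467 genes, and an adjusted p under 0.05 was called. Named genes are the 12 of lowest p in each direction, a fixed set of genes, up to 6 members of lowest p of each described list, and for each drug pair the 4 of lowest p in each direction. The fixed set held stress, inflammatory, cell division, drug target, trophic, peptide, lipid and marker genes. Many of them, such as Ptgs2, Ostn and Hmox1, are also among those of lowest p here. Further list members at an unadjusted p under 0.05, or whose value bears on the group described, were named after their values were seen. The members, the 46 gene lists and the rule were chosen with earlier results of these data known. Lists are described by counts and medians, with no test. A gene on 2 lists is counted in both. Replicate numbers were not used to pair arrays. Promoter sequences and starts are RefSeq's (GRCm38.p6), and figures were drawn with matplotlib 3.10.9 in Python 3.11.15. Alternatives were other filters, other probe set rules, a trended and robust eBayes, a repeated quantile normalization, weights per array, the 4 arrays compared alone, arrays left out, and the replicate number as a block.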

Additional observations from a re-analysis of the deposited data

How the results depend on the processing

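The number of genes called between amitriptyline and control, 0 as reported, was 17 with a filter at the 50th percentile, 28 with eBayes with trend and robust, 18 after a second quantile normalization, 222 with array weights and 228 without both arrays that stand apart. It was 0 with no filter, with every probe set tested, with the mean of a gene's probe sets and with only the 4 arrays compared. Leaving out 1 array at a time gave 0 to 48, with 17 without control replicate 2 and 48 without either duloxetine array. With the replicate number as a block, 0 genes were called; the deviations of same-numbered amitriptyline and control arrays correlated at 0.067, and the numbers were not taken to pair the arrays. Between amitriptyline and imipramine, and between amitriptyline and citalopram, 0 genes were called under all of these settings. Bdnf was -0.009 after the second quantile normalization. With 1 array left out at a time, Bdnf ranged from -0.035 to 0.075, Ntrk2 from -0.045 to 0.095, Slc6a2 from -0.1 to 0.08, Hrh1 from -0.135 to 0.085, Smpd1 from -0.155 to 0.095, Arc from -0.085 to 0.025, Npas4 from -0.62 to 0.44, Fos from -0.8 to 0.15, Vgf from -0.36 to 0.02, Syt1 from -0.01 to 0.15 and Ttr from -0.515 to 1.015, so none of these has a settled direction. List medians changed sign under at least 1 setting for 21 of 45 lists, all with medians between -0.09 and 0.072, among them the neuron, microglial, endothelial, fibroblast and immediate early lists. The causes were not tested.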

Other observations

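Iron handling genes had 3 of 15 higher and 0 lower at an unadjusted p under 0.05, against 1.91% higher and 4.24% lower of all genes, around a median of 0.05. They were Hmox1, Steap1 and the ferroxidase gene Cp (0.24, 95% interval 0.01 to 0.47). The list's mean was -0.05 and 0.05 on the control arrays and 0.15 and 0.19 on the amitriptyline arrays. Extracellular matrix genes had 3 higher and 5 lower of 27, around a median of -0.02, from Timp3 at -0.70 to Ddr2 at 1.03. In 4 other lists the median was within 0.1 of 0 and few members had an unadjusted p under 0.05. GABA receptor genes had a median of -0.06 with 1 of 11 lower, the subunit gene Gabrd (-0.22, 95% interval -0.42 to -0.02). Genes of voltage-gated sodium channels, proteins that tricyclics are known to block, had a median of -0.02 with 1 of 8 lower, Scn9a (-0.45, 95% interval -0.84 to -0.06). Glucocorticoid response genes had a median of 0.02 with 1 of 15 lower, which was Pdk4. Lipid export and fatty acid synthesis genes had a median of -0.02 with 2 of 16 lower, Lpl and Apoe. Markers of ependyma and choroid plexus had a median of 0.07 over 6 genes. Among them transthyretin (Ttr), the carrier protein made by choroid plexus, was at 7.88 and 8.89 in control and 9.40 and 7.87 with amitriptyline, so replicates of both groups were over 1 log2 unit apart.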
